A study of Mus musculus with 24 samples.

Results

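The S100 and annexin genes are a set of 10 chosen by name, with earlier results of these data known, so their shares beside all genes are not those of an unselected set. They are the S100 genes S100a1, S100a4, S100a6, S100a10, S100a11 and S100b and the annexin genes Anxa1, Anxa2, Anxa3 and Anxa5. They were found by symbol from the Ensembl identifiers of the gene tables, and 9 of the 10 were measured among 14922 genes at 1 week and 9 of the 10 among 15920 genes at 5 weeks. S100a4, a gene of motile and fibroblast-like cells, has no row in either table, so its transcript level was not analysed here. RNA-Seq was performed on retinas of male C57BL/6J mice in 4 groups of 6. The bTBI mice of the 1-week group (8 days in the sample labels) and of the 5-week group had received a blast wave of 20 PSI at 13 to 17 weeks of age, and each of these groups had its own sham group, handled alike but without the wave. The retina was taken from the eye that faced the wave, and RNA was isolated with different kits, RNeasy Plus Mini for the 1-week and RNeasy Mini for the 5-week retinas. The labels name the cell type retinal ganglion cell (RGC), but the tissue was dissected retina, and markers of other retinal cells were present. In the 24 retinas the sum of 8 Müller glia genes (8 of 8 listed measured) was 4473 to 7925 CPM (the reads of a gene scaled to library size), and the RGC transcription factor gene Pou4f1 was at 9.70 to 40.2 CPM.

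Most S100 proteins are small calcium sensors with EF-hand motifs, usually dimers, that change shape when they bind calcium and then dock on target proteins. Annexins bind acidic membrane phospholipids in the presence of calcium and take part in membrane trafficking, repair of torn plasma membranes and the resolution of inflammation. The families meet in complexes, such as the S100A10-annexin A2 tetramer at the inner face of the plasma membrane and the S100A11-annexin A1 complex, and in nervous tissue several of these proteins are found in astrocytes, Müller glia and microglia.

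Most mouse S100a genes lie together on chromosome 3. S100a6 is at chr3:90612882-90624181 in GRCm38, S100a11 at chr3:93520488-93526287 and S100a10 28792 bases beyond it, at chr3:93555080-93564643, all on the plus strand, while Anxa2 is at chr9:69453620-69491795. The promoters of S100a6, S100a11 and Anxa2 are shown because their transcripts had among the larger differences of the set at 1 week. Each runs 250 bases before to 50 bases after the RefSeq transcript start (GRCm38.p6, plus strand, 5′ to 3′), and capitals mark the AP-1 motif TGANTCA.
S100a6 chr3:90612644-90612943: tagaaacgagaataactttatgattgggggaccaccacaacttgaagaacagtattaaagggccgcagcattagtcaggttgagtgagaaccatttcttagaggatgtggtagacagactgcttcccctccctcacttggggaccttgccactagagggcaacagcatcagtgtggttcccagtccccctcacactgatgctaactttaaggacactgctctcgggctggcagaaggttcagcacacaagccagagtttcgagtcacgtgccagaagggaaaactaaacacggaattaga
S100a11 chr3:93520246-93520545: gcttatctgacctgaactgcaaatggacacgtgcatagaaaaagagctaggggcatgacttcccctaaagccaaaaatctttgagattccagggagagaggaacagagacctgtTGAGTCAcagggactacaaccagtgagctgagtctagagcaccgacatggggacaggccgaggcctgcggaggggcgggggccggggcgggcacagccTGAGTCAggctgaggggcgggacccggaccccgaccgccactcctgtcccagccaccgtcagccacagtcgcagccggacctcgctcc
Anxa2 chr9:69453433-69453732: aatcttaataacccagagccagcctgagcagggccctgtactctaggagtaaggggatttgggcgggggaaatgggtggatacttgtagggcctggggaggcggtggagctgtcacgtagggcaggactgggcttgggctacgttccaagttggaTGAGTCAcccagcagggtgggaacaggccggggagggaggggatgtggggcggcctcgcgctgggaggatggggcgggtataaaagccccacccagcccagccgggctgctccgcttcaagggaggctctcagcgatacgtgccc
The motif stood at 2 places in the S100a11 promoter, with first bases 136 and 38 bases before the start, and at 1 place in the Anxa2 promoter, 95 bases before the start. It was not in the S100a6 window. A promoter was at hand for 8 of the 10 genes (none for S100a10 and Anxa3), and 2 of these 8 held the motif, against 7.81% of 32851 mouse promoters of the same length. The motif TTCNNNGAA, which STAT factors bind, stood in 0 of the 8 and in 8.3% of all promoters. The motif TATAAA stood in the promoters of S100a4, Anxa2 and Anxa1, 3 of the 8, and in 13.6% of all promoters. Both strands were searched for each motif on its own, and matches of different motifs may overlap.

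Summed over the measured genes, the depth ran at 15097829 to 25158638 reads in bTBI and 14301989 to 24102502 reads in sham retinas at 1 week, and 15521745 to 23838444 reads in bTBI and 16847387 to 23787494 reads in sham retinas at 5 weeks. Some bTBI retinas of 1 week stood apart in transcripts of other tissues. In bTBI replicate 3 the oligodendrocyte gene Mbp was at 2531 CPM and in bTBI replicate 4 at 139 CPM, against at most 42.0 CPM in sham retinas. In bTBI replicates 5 and 6 the lens gene Cryaa was at 2003 and 4541 CPM, against at most 422 CPM in sham retinas. In bulk retina, a change in the number of cells of a type and a change in the RNA per cell cannot be told apart.

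At 1 week the S100 and annexin transcripts stood mostly above sham. The log2 fold change (bTBI minus sham, on the log2(CPM + 1) scale, which understates changes of low transcripts) was above 0 for 9 of 9 measured genes, with a median of 0.42. The median gene was S100b, whose value was -0.03 without bTBI replicate 3. The value of S100a1 also fell below 0 without bTBI replicate 1 (-0.006) or sham replicate 6 (-0.032). Over all genes the median was -0.00 and 49.9% were above 0. A gene was called differentially expressed at a Benjamini-Hochberg adjusted p under 0.005 in limma, which 2.25% of all genes reached. Of the 9 genes 1 was called, S100a6, and it was higher in bTBI retinas, as were 1.27% of all genes by this rule. At an unadjusted p under 0.05 stood 7 of the 9 genes, against 17.3% of all genes. For 0 of the 9 did all 6 bTBI retinas lie above every sham retina, which held for 1.59% of all genes.

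**Figure D1:**
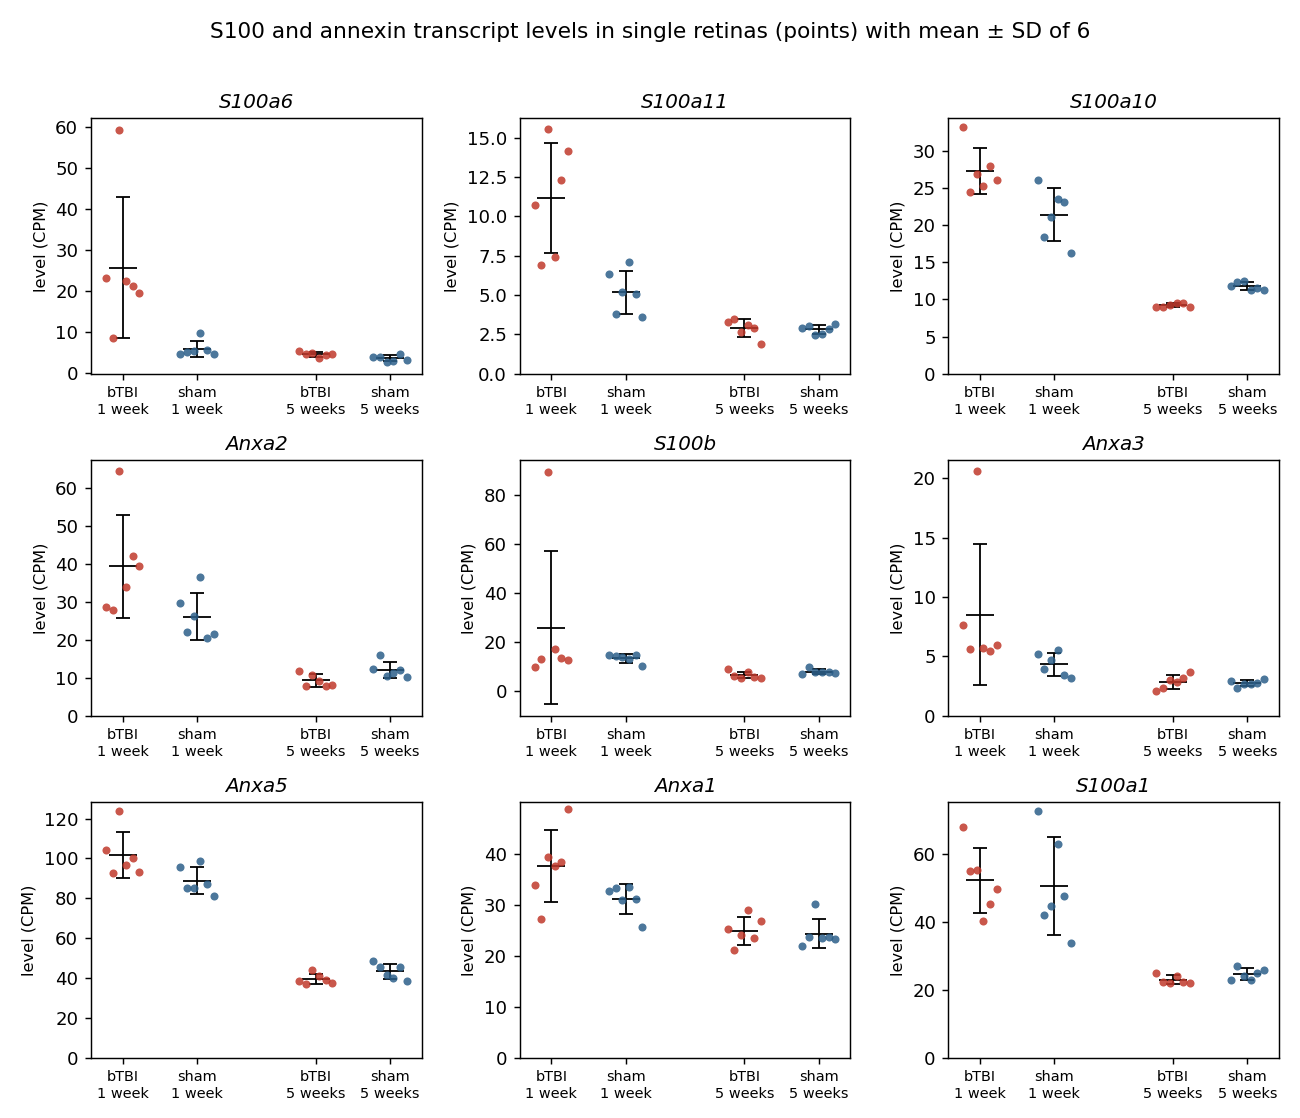
Levels (y axes, CPM) of the 9 measured S100 and annexin genes in single retinas (points) of the 4 groups (x axes), with the mean ± SD of 6 retinas as bars. At 1 week bTBI replicate 3 is the highest point for S100a6 (59.3 CPM), S100b (89.6 CPM), Anxa2 (64.4 CPM) and Anxa3 (20.6 CPM), and at 5 weeks the 6 bTBI retinas lie below every sham retina for S100a10.

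S100a6, also known as calcyclin, encodes a small calcium sensor of glia and fibroblasts that binds annexins and the ubiquitin ligase adaptor CacyBP. In bTBI retinas of 1 week it was at 8.67 CPM in the lowest, 21.9 CPM at the median and 59.3 CPM in the highest retina, against 4.55, 5.35 and 9.81 CPM in sham retinas. Thus 5 of the 6 bTBI retinas lay above every sham retina, and only bTBI replicate 2 fell within the sham range, below sham replicate 4. The means were 25.8 ± 17.3 CPM in bTBI and 5.88 ± 1.97 CPM in sham (SD, n = 6 each), a ratio of 4.38, and the log2 fold change was 1.79 (standard error 0.30, limma, Benjamini-Hochberg adjusted p = 0.00182). Without bTBI replicate 3 the bTBI mean was 19.1 ± 5.96 CPM (n = 5) and the log2 fold change 1.51 (limma, Benjamini-Hochberg adjusted p = 0.00116). The call was lost without bTBI replicate 4 or without any of sham replicates 1, 2, 3, 5 and 6 (limma, Benjamini-Hochberg adjusted p = 0.00509 to 0.00610), and over the other alternative settings the adjusted p was 5.29e-06 to 0.0132.

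S100a11, or calgizzarin, encodes the partner of annexin A1 and takes part in membrane repair. It was at 6.93 CPM in the lowest, 11.5 CPM at the median and 15.5 CPM in the highest bTBI retina of 1 week, against 3.63, 5.13 and 7.09 CPM in sham retinas. Of the bTBI retinas 5 of 6 lay above every sham retina, again with bTBI replicate 2 as the exception, and sham replicate 4 was again the highest sham retina. The log2 fold change was 0.95 (standard error 0.19), a ratio of means of 2.16, and it just missed the threshold (limma, Benjamini-Hochberg adjusted p = 0.00539). Tests on the read counts recovered from the table put S100a11 past it (edgeR, adjusted p = 0.00435, log2 fold change 1.12, and DESeq2, adjusted p = 6.26e-06), and over all alternatives other than single omissions the adjusted p was 6.26e-06 to 0.0452. With these tools 2 of the 9 genes were called, S100a6 and S100a11, against 2.25% of all genes with edgeR and 4.61% with DESeq2. In limma the call was gained without bTBI replicate 2, bTBI replicate 4 or sham replicate 4 (Benjamini-Hochberg adjusted p = 0.00128, 0.00391 and 0.00380).

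S100a10 and Anxa2 encode the subunits of a tetramer that tethers membrane proteins and binds tissue plasminogen activator. S100a10 was at 24.5 CPM in the lowest, 26.4 CPM at the median and 33.1 CPM in the highest bTBI retina of 1 week, against 16.3, 22.1 and 26.0 CPM in sham retinas. Anxa2 was at 27.8, 36.6 and 64.4 CPM in bTBI retinas, against 20.5, 24.2 and 36.6 CPM in sham retinas. For S100a10 4 of 6 and for Anxa2 3 of 6 bTBI retinas lay above every sham retina, and the groups overlapped for both genes. The log2 fold change was 0.35 for S100a10 (standard error 0.10) and 0.55 for Anxa2 (standard error 0.18), and neither was called (limma, Benjamini-Hochberg adjusted p = 0.0587 and 0.0969). Without bTBI replicate 3 the log2 fold change of Anxa2 was 0.39.

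**Figure D2:**
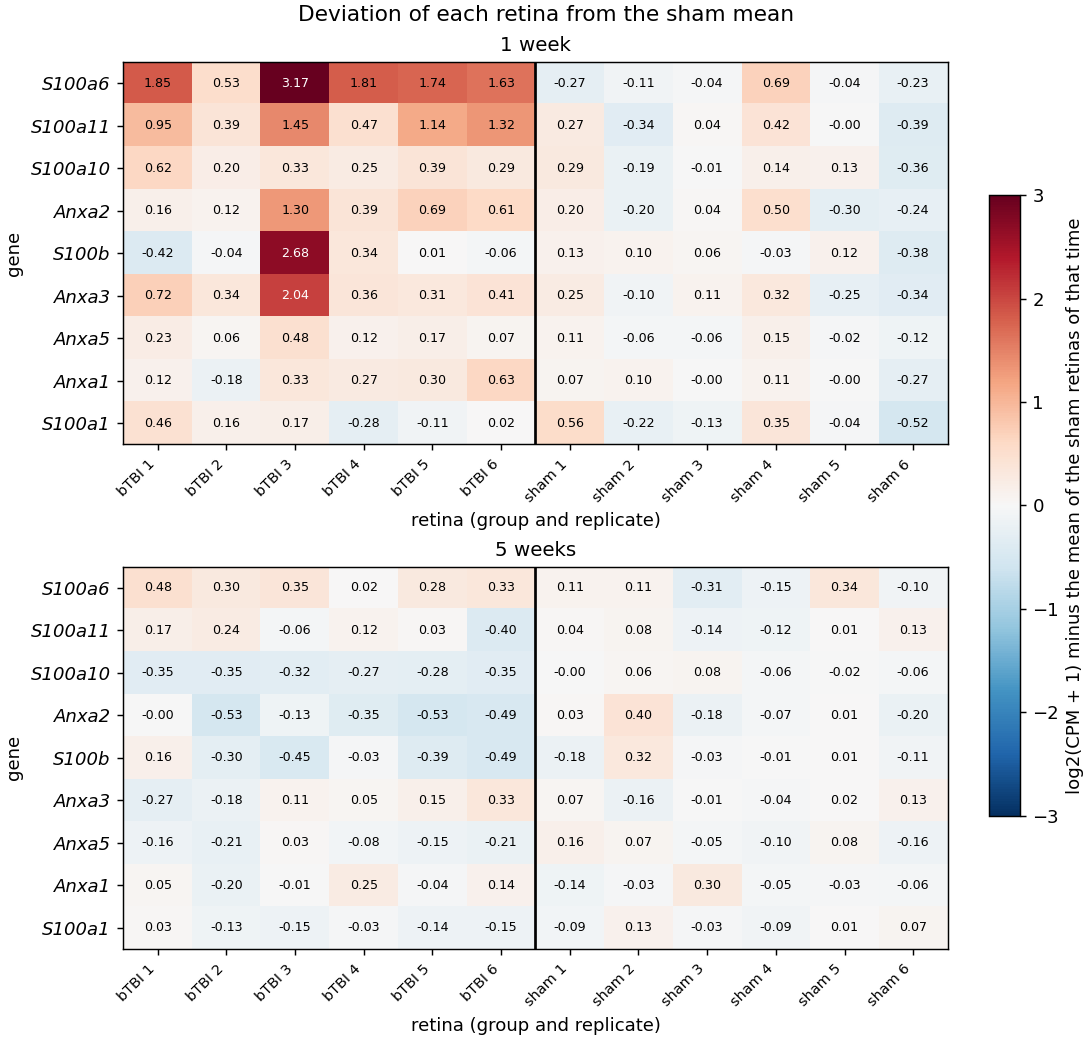
Deviation of each retina (x axis, group and replicate, bTBI left of sham) from the mean of the sham retinas of its timepoint, in log2(CPM + 1) units (colour and printed value), for each of the 9 genes (y axis), with 1 week above and 5 weeks below. S100a6 reaches 3.17 in bTBI replicate 3 of 1 week and 0.53 in bTBI replicate 2, and at 5 weeks S100a10 lies between -0.35 and -0.27 in all 6 bTBI retinas.

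The other annexin genes were not called at 1 week. Anxa1, whose product limits leukocyte recruitment and phospholipase A2 activity, was at 27.2 to 48.6 CPM (median 38.0) in bTBI retinas of 1 week and at 25.5 to 33.5 CPM (median 31.8) in sham retinas. Anxa5, whose product binds exposed phosphatidylserine and patches torn membranes, was at 92.5 to 124 CPM (median 98.4) in bTBI and at 81.2 to 98.7 CPM (median 86.1) in sham retinas. Both genes thus had some bTBI retinas above every sham retina, 5 of 6 for Anxa1 and 3 of 6 for Anxa5, with log2 fold changes of 0.24 and 0.19 that were not called (limma, Benjamini-Hochberg adjusted p = 0.244 and 0.144). Anxa3, an annexin gene described in microglia, was at 5.49 to 20.6 CPM (median 5.86) in bTBI and at 3.15 to 5.55 CPM (median 4.30) in sham retinas. Its log2 fold change was 0.70 (standard error 0.25, limma, Benjamini-Hochberg adjusted p = 0.127) with all 12 retinas and 0.43 without bTBI replicate 3, which alone was above 10 CPM.

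S100b, the S100 gene of astrocytes, Müller glia and myelinating cells, was decided by a single retina. It was at 89.6 CPM in bTBI replicate 3 of 1 week and at 9.56 to 16.9 CPM in the other 5 bTBI retinas, against 9.88 to 14.5 CPM in sham retinas. Its log2 fold change was 0.42 (standard error 0.38, limma, Benjamini-Hochberg adjusted p = 0.672) with that retina and -0.03 without it. S100a1, known for its control of calcium release in muscle and also present in neurons, was at 40.3 to 67.9 CPM (median 52.3) in bTBI and at 33.9 to 72.6 CPM (median 46.1) in sham retinas. Its groups lay within each other, with a log2 fold change of 0.07 (limma, Benjamini-Hochberg adjusted p = 0.885).

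The spread within the groups was shared among the genes. In bTBI retinas of 1 week, replicate 3 was the highest for 6 of the 9 genes and replicate 2 the lowest for 6 of 9, and in sham retinas replicate 4 was the highest for 6 of 9 and replicate 6 the lowest for 7 of 9. The microglial and reactive macroglial lists had the same retinas at their ends. The summed level of 10 microglial genes (10 of 10 listed measured) was 234 to 628 CPM in bTBI retinas, lowest in replicate 2 and highest in replicate 3, against 138 to 216 CPM in sham retinas, where it was highest in replicate 4 and lowest in replicate 6. Of 12 genes of reactive macroglia 11 were measured, with a sum of 512 to 1657 CPM in bTBI retinas, again lowest in replicate 2 and highest in replicate 3, and 339 to 503 CPM in sham retinas, again with replicates 6 and 4 at the ends. Neither list overlapped between the groups at 1 week. In sham retinas replicates 4 and 6 were also the highest and lowest for summed Müller glia genes (7925 and 7031 CPM) and fibroblast genes (67.8 and 28.8 CPM). Summed rod genes were highest in sham replicate 6 (88633 CPM). In bTBI retinas the Müller glia sum was lowest in replicate 3 (6661 CPM) and the fibroblast sum lowest in replicate 1 (33.8 CPM). Sums are led by the most abundant genes. By the mean of log2(CPM + 1) over the same Müller glia genes, replicate 3 was instead the highest bTBI retina (8.69). Among sham retinas replicate 3 was then the highest (8.64) and replicate 6 still the lowest (8.52). For fibroblast genes sham replicate 1 was the lowest by this mean (1.88). The microglial and reactive macroglial lists kept the same retinas at their ends.

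Lists of cells from outside the retina were uneven as well. Of 7 fibroblast genes 6 were measured, at 33.8 to 219 CPM in bTBI and 28.8 to 67.8 CPM in sham retinas, and bTBI replicate 3 was again the highest. Among oligodendrocyte genes, Mbp was at 35.7 to 2531 CPM in bTBI and 38.3 to 42.0 CPM in sham retinas, and without bTBI replicate 3 the highest bTBI retina had 139 CPM. Of 14 lens genes 11 were measured, at 45.4 to 8013 CPM in bTBI and 11 to 766 CPM in sham retinas. Mbp and the measured genes of the microglial, reactive macroglial, fibroblast and lens lists were above 0 in every retina of 1 week. Without the lens-rich bTBI replicates 5 and 6 together the log2 fold change of S100a6 was 1.84 but it was not called (limma, Benjamini-Hochberg adjusted p = 0.0110, 4 bTBI retinas), and that of S100a11 was 0.82. The part of these cells in the S100 and annexin levels was not tested.

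At 5 weeks the pattern was different. Of the 9 genes 4 stood above 0 and 5 below, with a median log2 fold change of -0.09, while 50.6% of all genes stood above 0 with a median of 0.00. At an unadjusted p under 0.05 stood 5 of the 9, against 10.9% of all genes. Of the 9 genes 1 was called, S100a10, and it was lower in bTBI retinas, against 0.835% of all genes called in either direction and 0.823% called lower. It was at 9.01 CPM in the lowest, 9.11 CPM at the median and 9.55 CPM in the highest bTBI retina, against 11.2, 11.7 and 12.5 CPM in sham retinas. All 6 bTBI retinas lay below every sham retina and close together, and S100a10 was the only member of the set whose groups did not overlap, which held in this direction for 1.75% of all genes. The means were 9.21 ± 0.245 CPM in bTBI and 11.8 ± 0.538 CPM in sham (SD, n = 6 each). The log2 fold change was -0.32 (standard error 0.06, limma, Benjamini-Hochberg adjusted p = 0.00400).

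The call of S100a10 at 5 weeks was lost without any single retina of the 12. The log2 fold change was then -0.33 to -0.31 (limma, Benjamini-Hochberg adjusted p = 0.00518 to 0.0147). Over the other alternatives the adjusted p was 0.000919 to 0.0397, with edgeR on recovered reads at 0.00388, and S100a10 was the 1 member called with edgeR (0.798% of all genes called) and with DESeq2 (1.48%). At the same time the summed level of 10 RGC genes (10 of 10 measured) was 487 to 745 CPM in bTBI and 900 to 986 CPM in sham retinas, while the sum of 9 microglial genes (9 of 10 measured) was 90.2 to 113 CPM in bTBI and 81.7 to 95.6 CPM in sham retinas. No measured gene of these lists was at 0. At 1 week the sum of the RGC genes was 868 to 1427 CPM in bTBI and 1599 to 1915 CPM in sham retinas. The log2 fold change of S100a10 was then 0.35. The part of RGCs in the S100a10 level was not tested.

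Anxa2, the partner of S100a10, was at 7.93 to 11.9 CPM (median 8.67) in bTBI and at 10.3 to 16.1 CPM (median 11.7) in sham retinas of 5 weeks. Of the bTBI retinas 4 of 6 lay below every sham retina, with a log2 fold change of -0.34 (standard error 0.11) that was not called (limma, Benjamini-Hochberg adjusted p = 0.133). S100a6 was at 3.59 to 5.31 CPM (median 4.63) in bTBI and at 2.66 to 4.71 CPM (median 3.55) in sham retinas. The ranges overlapped, with a log2 fold change of 0.30 (limma, Benjamini-Hochberg adjusted p = 0.246). S100b (-0.25), Anxa5 (-0.13) and S100a1 (-0.09) had log2 fold changes below 0, and Anxa3 (0.03), Anxa1 (0.03) and S100a11 (0.01) stood near 0, with Benjamini-Hochberg adjusted p of 0.367 to 0.982 in limma. S100b was at 5.20 to 8.71 CPM (median 5.82) in bTBI and at 6.68 to 9.81 CPM (median 7.55) in sham retinas, with 4 of 6 bTBI retinas below every sham retina. S100a1, at 22.1 to 25.1 CPM (median 22.3) in bTBI and 23.0 to 27.1 CPM (median 24.4) in sham retinas, also had 4 of 6 below. Anxa5 was at 37.2 to 44.0 CPM (median 38.8) in bTBI and at 38.6 to 48.5 CPM (median 43.6) in sham retinas, with 2 of 6 below. The other genes had sham ranges that lay within the bTBI range or crossed it, and S100a11 was low in both groups, at 1.88 to 3.49 CPM in bTBI and 2.45 to 3.18 CPM in sham retinas. No retina of 5 weeks stood apart for most of the genes, since bTBI replicate 1 was the highest of its group for 4 of 9 and sham replicate 2 the highest of its group for 3 of 9.

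**Figure D3:**
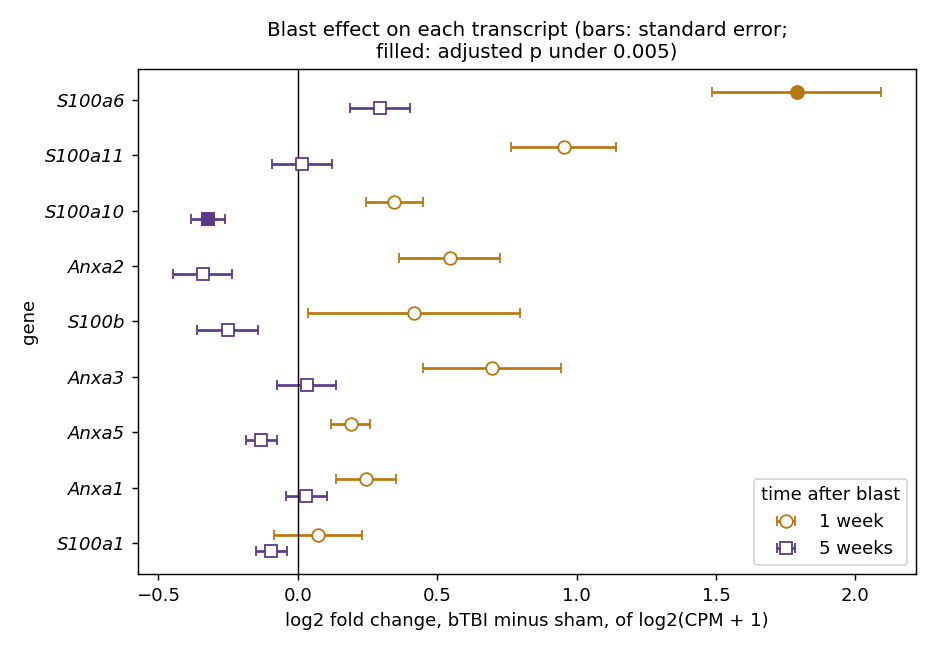
Log2 fold change of log2(CPM + 1), bTBI minus sham (x axis), of each gene (y axis) at 1 week (circles) and 5 weeks (squares), with the standard error as bars and filled symbols for an adjusted p under 0.005. S100a6 at 1 week (1.79) and S100a10 at 5 weeks (-0.32) are filled, and S100a10 has its 1-week value, 0.35, on the other side of 0.

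To ask whether the effect of the blast differed between the timepoints, the difference of the log2 fold changes (1 week minus 5 weeks) was tested over the 14455 genes in both tables. RNA kit and scaling differed between the timepoints too and cannot be told apart from time here. Of the 9 genes 1 was called, S100a10, against 0.104% of all genes. Its difference was 0.67 (standard error 0.12, limma, Benjamini-Hochberg adjusted p = 0.00387, and edgeR on recovered reads, adjusted p = 0.00435). It stayed called without 1-week bTBI replicate 2 or 6, 1-week sham replicate 1 or 4, or 5-week bTBI replicate 1, and was not called without any other single retina, with differences of 0.60 to 0.73 (limma, Benjamini-Hochberg adjusted p = 0.000868 to 0.0102). The difference was 1.49 for S100a6 (standard error 0.34), 0.94 for S100a11 (standard error 0.22) and 0.89 for Anxa2 (standard error 0.22), and these were not called (limma, Benjamini-Hochberg adjusted p = 0.0346, 0.0405 and 0.0589). A fold change above 0 at 1 week and below 0 at 5 weeks was seen in 5 of the 9 genes, S100a1, S100a10, S100b, Anxa2 and Anxa5, and in 19% of all genes. For S100a1 and S100b the 1-week sign turned in some single omissions of a retina, for S100b without bTBI replicate 3.

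The sham retinas themselves had different levels in the tables of 1 and 5 weeks. The mean of all 9 genes in sham retinas was lower at 5 weeks, at 46.2% (Anxa2) to 78.1% (Anxa1) of the 1-week mean, while 46.2% of all genes had a lower sham mean at 5 weeks. For 7 of the 9 genes every 5-week sham retina lay below every 1-week sham retina, which held for 24% of all genes. S100a6 was at 2.66 to 4.71 CPM in sham retinas of 5 weeks and at 4.55 to 9.81 CPM in those of 1 week, and Anxa1 at 21.9 to 30.1 and 25.5 to 33.5 CPM, so that these genes overlapped. The tables were scaled separately and the RNA kits differed, so age, kit and scaling cannot be told apart here, and no test was made.

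Levels of different genes were compared per kilobase of exon. In sham retinas of 1 week S100a1 was at 72.9 ± 20.7 CPM per kb and Anxa5 at 50.0 ± 3.84 CPM per kb (SD, n = 6), and the ranges of these leading genes overlapped. S100a10 followed at 17.6 CPM per kb, clear of Anxa5 above and of Anxa1 below. Anxa1 (10.7 CPM per kb), S100a11 (10.1), S100b (8.92), Anxa2 (6.99) and S100a6 (4.30) then each overlapped with the next, and Anxa3 came last at 1.19 CPM per kb, clear of S100a6. In bTBI retinas of 1 week S100a11 (21.9 CPM per kb) and S100a6 (18.9 CPM per kb) came after, and overlapped in their ranges with, S100a10 (22.5 CPM per kb). At 5 weeks S100a1 led again, at 33.2 CPM per kb in bTBI and 35.5 CPM per kb in sham retinas, and S100a10 stood behind Anxa1 in bTBI retinas (7.60 and 8.54 CPM per kb) but ahead of it in sham retinas (9.71 and 8.36 CPM per kb), with overlapping ranges in both groups.

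Over the 24 retinas, the genes whose levels ran most like those of S100a6 were sought among 12277 genes with a mean log2(CPM + 1) of at least 2 at each time. The distance was the mean absolute difference of the deviations from the sham mean on the log2(CPM + 1) scale. The nearest were Mpeg1 (0.13), a pore-forming protein gene of macrophages and microglia, the complement genes C1qa (0.17), C1qc (0.18) and C1qb (0.19), and Ctss (0.18), a lysosomal protease gene of microglia. This distance takes in the shift of the bTBI retinas itself, so similar log2 fold changes follow from the choice of the nearest genes. Theirs were 1.57 to 1.82 at 1 week and 0.19 to 0.39 at 5 weeks, beside 1.79 and 0.30 for S100a6. Within the set the nearest gene was S100a11 (0.38), followed by Anxa3 (0.45), and S100a1 was the farthest (0.64). S100a11 and Anxa3 averaged under 2 on the log2(CPM + 1) scale at 5 weeks, so they were not among the genes searched. These distances describe the retinas and were not tested.

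Of the other members of both families few were measured. Among 10 further S100 genes, S100a13 and S100a16 were measured, and among 8 further annexin genes 4 were measured at 1 week (Anxa4, Anxa6, Anxa7 and Anxa11) and 5 at 5 weeks (with Anxa9). None of these was called at either time in the limma test described above or with edgeR. At 1 week 2 of 2 S100 and 1 of 4 annexin genes, and at 5 weeks 0 of 2 and 1 of 5, had an unadjusted limma p under 0.05, against 17.3% of all genes at 1 week and 10.9% at 5 weeks. DESeq2, which called 1.48% of all genes at 5 weeks, called Anxa6 there. Under other limma settings S100a16 was called at 1 week in the single fit of 24 retinas, and Anxa6 at 5 weeks with the robust prior or without bTBI replicate 4. Of 16 genes for binding partners and receptors of these proteins 11 were measured at each time. None was called at 1 week in this limma test or with edgeR. An unadjusted limma p under 0.05 was seen in 5 of the 11, against 17.3% of all genes, and Plat, the gene of tissue plasminogen activator, was called with DESeq2 (4.61% of all genes) and in the single limma fit. At 5 weeks 1 of the 11 was called, against 0.835% of all genes. It was Ahnak2, a giant scaffold protein gene related to the annexin A2 ligand AHNAK, and it was lower in bTBI retinas.

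Ahnak2 was at 3.95 to 6.93 CPM (median 5.27) in bTBI and at 6.68 to 8.96 CPM (median 8.77) in sham retinas of 5 weeks, with 5 of 6 bTBI retinas below every sham retina. Its log2 fold change was -0.58 (standard error 0.10, limma, Benjamini-Hochberg adjusted p = 0.00168). The call was lost without bTBI replicate 2 or 3 or sham replicate 1, 2 or 5 (limma, Benjamini-Hochberg adjusted p = 0.00509 to 0.00648), and over the other alternatives the adjusted p was 2.18e-05 to 0.00977. Of 10 genes of plasma membrane repair, such as dysferlin, calpains and ESCRT subunits, all were measured and none was called at either time in this limma test or with edgeR. Of these, 3 at 1 week and 5 at 5 weeks had an unadjusted limma p under 0.05, against 17.3% and 10.9% of all genes. DESeq2 called Myof at 1 week and Capn1 at 5 weeks (4.61% and 1.48% of all genes). Other limma settings called Myof at 1 week in the single fit and without bTBI replicate 2, and Capn1 at 5 weeks without the trend, with the robust prior and with scaling by the sum of the values.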

How the data were processed

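The members and gene lists were chosen with earlier results of these data known. Per the study's methods, the authors aligned reads of stranded libraries with STAR (GRCm38), obtained counts per gene from featureCounts and compared groups per timepoint with edgeR. The deposited signal values are such counts scaled by the authors to an effective library size (CPM), without genes of low counts; the strand setting and annotation release are not given in the sources used here. Within each retina 100% of values were whole multiples of 1 read within 0.01, which gave the depth. Log2(CPM + 1) was compared within each timepoint with limma 3.58.1 (trend) in R 4.3.3, adjusted over all genes by Benjamini-Hochberg and called under 0.005. The difference of effects used all 24 retinas. edgeR 4.0.16 and DESeq2 1.42.0 ran on recovered reads. Other alternatives were a pseudocount of 0.1, a minimum of 1 CPM in 6 of 12 retinas, other scalings, no trend, a robust prior, a replicate block, a single fit, a threshold of 0.05 and omission of retinas. No column was left out as belonging to another series.

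All 10 members are named, with every called gene of the family, partner and repair lists and the 5 genes most like S100a6. Gene positions come from GENCODE M21 (GRCm38). In it S100b, Anxa1 and Anxa2 overlap a gene on the opposite strand, Anxa3 and S100a4 a gene on the same strand, and S100a11 has a processed pseudogene, so their counts carry that uncertainty. Nothing in the labels states pairs or litters, so p-values measure the spread between single mice. Some marker genes are not reported here.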

Additional observations from a re-analysis of the deposited data

Results flagged for a closer look

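Of 36 groups of 6 retinas examined for a single far value on the log2(CPM + 1) scale, 6 held one, where chance gives about 1 in 20 for a single group. The genes were measured in the same retinas, so the groups were not independent and the count cannot be set against that share. In bTBI replicate 3 of 1 week S100b was at 89.6 CPM, with the other 5 bTBI retinas at 9.56 to 16.9 CPM, and Anxa3 was at 20.6 CPM, with the others at 5.49 to 7.66 CPM. S100a6 was at 59.3 CPM in that retina, with the others at 8.67 to 23.1 CPM, and was not flagged on this scale. In sham retinas of 1 week S100a6 was at 9.81 CPM in replicate 4 (others 4.55 to 5.53 CPM), and in replicate 6 S100b was at 9.88 CPM (others 12.8 to 14.5 CPM) and Anxa1 at 25.5 CPM (others 31.0 to 33.5 CPM). In sham retinas of 5 weeks Anxa1 was at 30.1 CPM in replicate 3 (others 21.9 to 23.7 CPM).

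The log2 fold change of S100a10, bTBI minus sham, differed between 1 and 5 weeks by 0.67 in the test of the difference itself (limma, Benjamini-Hochberg adjusted p = 0.00387). This call held in 5 of 24 single omissions and was lost without 1-week bTBI replicates 5 and 6 together. The timepoints also differed in RNA kit and scaling, which cannot be told apart from time here.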

How the results depend on the processing

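Of 367 comparisons of a named gene with an alternative other than the omission of a single retina, 339 kept their direction and side of the threshold, 14 lost a call, 14 gained one and 0 changed sign. At 1 week the count of called members, 1, became 0 without the trend, with the robust prior and without bTBI replicates 5 and 6 together, and 2 with edgeR, DESeq2, the single fit of 24 retinas and a threshold of 0.05. The count over all genes, 336, became 688 with DESeq2, 685 in the single fit, 112 without replicates 5 and 6 and 907 at 0.05. At 5 weeks the count of members, 1, became 0 in the single fit and with the replicate block. The count over all genes, 133, became 56 without the trend, 236 with DESeq2, 75 in the single fit and 326 at 0.05. For the difference, the count of members, 1, became 0 without replicates 5 and 6.

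Leaving out each retina in turn gave 0 to 2 members and 189 to 486 genes at 1 week, 0 members and 88 to 163 genes at 5 weeks, and 0 to 3 members and 9 to 111 genes (15 with all retinas) for the difference. The count over all genes moved by over 1.5 times at 1 week without bTBI replicate 5 (204) or 6 (217) or sham replicate 2 (189), 3 (206) or 5 (204), at 5 weeks without sham replicate 2 (88), and for the difference without 1-week bTBI replicate 2 (111) or sham replicate 4 (31) or 5-week bTBI replicate 1 (43), 3 or 5 (9 each). Single omissions turned the sign of log2 fold changes near 0, with ranges of -0.032 to 0.18 (S100a1) and -0.034 to 0.59 (S100b) at 1 week and of -0.030 to 0.098 (S100a11), -0.012 to 0.092 (Anxa1) and -0.027 to 0.093 (Anxa3) at 5 weeks. The cause of these shifts was not tested.

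Retinas of the same number had correlations of their deviations of -0.25 to 0.54 at 1 week and -0.11 to 0.15 at 5 weeks, not above 0.1 in every pair, and were taken to share only a number. With the number as a block, 1 member and 293 genes were called at 1 week and 0 members and 134 genes at 5 weeks, where S100a10 had an adjusted p of 0.0176 in limma. Depth limits the low genes, since S100a11 and Anxa3 rest on 30 to 74 and 34 to 68 reads a retina at 5 weeks.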

Other observations

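Some genes next to the set in sequence or function came near the threshold, and they were chosen after their values were seen. S100a16, an S100 gene with a single working calcium site, was at 54.4 ± 9.37 CPM in bTBI and 40.8 CPM in sham retinas of 1 week (SD, n = 6), all 6 bTBI retinas above every sham retina (as in 1.59% of all genes), and a log2 fold change of 0.40 (limma, Benjamini-Hochberg adjusted p = 0.0372). Plat averaged 29.5 and 16.1 CPM in bTBI and sham retinas (log2 fold change 0.78, limma, Benjamini-Hochberg adjusted p = 0.0147) and Tgm2, the gene of tissue transglutaminase, 15.8 and 11.01 CPM (0.50, adjusted p = 0.0382). At 5 weeks Anxa6, the annexin with a doubled core, averaged 38.5 and 46.4 CPM in bTBI and sham retinas, and Capn1, the gene of calpain 1, 6.91 and 9.14 CPM, each with 6 of 6 bTBI retinas below every sham retina (as in 1.75% of all genes) and log2 fold changes of -0.26 and -0.36 (limma, Benjamini-Hochberg adjusted p = 0.0112 and 0.00565). The value of Capn1 at 1 week was -0.32 (limma, Benjamini-Hochberg adjusted p = 0.0450), with 5 of 6 bTBI retinas below every sham retina.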
